A study of Mus musculus with 2 samples.

Results

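The genes described here encode the proteins of the mitochondrial ribosome in 4T1 cells, a murine mammary carcinoma line. They were taken by name, as every listed gene whose symbol is Mrpl or Mrps followed by a digit, without pseudogene entries. This gave 77 of the 14197 genes in the table, of which 48 were named Mrpl for the large ribosomal subunit and 29 Mrps for the small subunit. The names Mrpl48-ps and Mrpl23-ps1 were left out as pseudogenes. Of 78 such gene symbols in the mouse annotation, Mrpl36 alone was not in the table.

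The experiment asked which transcripts differ in breast cancer cells after astragalin (AS), a plant flavonoid. In the AS group, 4T1 cells labelled as wild type received AS at 20 μM for 24 h, and in the control group the same cells received the vehicle. Each group was 1 RNA-seq library from a stranded mRNA preparation, so no difference has a replicate check and no test was made. The values are RPKM, which is a read number divided by the exon length of the gene in kilobases and by the size of the library. The library totals behind them were 44909683 reads with AS and 50820728 under vehicle, a 1.13-fold difference. Whole reads were recovered from the values for all 14197 genes, and 0 genes were listed at 0 in either library. Counting intervals below are 95% Clopper-Pearson intervals of these reads. They cover counting error only, and reads without molecular identifiers are not independent molecules.

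The libraries held the transcripts of the labelled cell type. All 10 mammary epithelial markers were listed, with a summed RPKM of 1874 with AS and 2373 under vehicle. Krt18, the most abundant, had 707 and 902 RPKM. The fibroblast markers reached 6.08 and 5.67 RPKM in sum, with 4 of 6 listed and Pdgfra the most abundant at 4.24 and 4.16 RPKM. Of the leukocyte markers 3 of 6 were listed, at 0.813 and 0.879 RPKM in sum, with Itgam and Csf1r below 0.5 RPKM in each library. None of the 4 endothelial markers was listed. The lower epithelial sum with AS lay mainly in the keratins, with log2 fold changes of -0.73 for Krt19, -0.54 for Krt8, -0.52 for Krt7 and -0.35 for Krt18, while Esrp1 (0.47), Cldn4 (0.42) and Cdh1 (0.17) were higher. Whether this has a part in the values below was not tested.

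Mitochondria keep their own ribosome, which makes the few respiratory chain subunits that the mitochondrial genome encodes. Its rRNAs are transcribed in the organelle, while all of its proteins are encoded in the nucleus, made in the cytosol and imported. Many of these proteins have homologues in bacterial ribosomes, and others occur only in mitochondria. The large subunit joins amino acids and holds the exit tunnel for hydrophobic products, and the small subunit binds the mRNA and reads its codons. Because RNA came from whole dishes, fewer cells with a transcript and less of it per cell cannot be told apart.

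The promoters of some members are shown first, since the genes of the mitochondrial ribosome are spread over 17 chromosomes and have no single locus in common. The sequences are the 120 bases before the RefSeq start (GRCm38.p6), 5′ to 3′ on the strand of the gene. Of the 22 members picked by the naming rule given with the processing, 13 have a window with at most 30 annotated exon bases. Within these 120 bases 7 of them have a searched motif and 6 have none. The 6 shown were chosen from these after the motif search to show the motifs, so 5 of them hold one there, marked by capitals, and all are Mrpl genes. Mrpl2 holds none in the printed bases, but has a MYC and USF motif elsewhere in the longer promoter searched below. Mrpl20 and Mrpl52 are among the lowest members with AS, Mrpl34 has the shortest summed exons, Mrpl12 and Mrpl2 are among the most abundant, and Mrpl9 is among the highest with AS. The windows lie at chr4:155802758-155802877 (Mrpl20, plus strand), chr14:54426789-54426908 (Mrpl52, plus), chr8:71464806-71464925 (Mrpl34, plus), chr11:120484517-120484636 (Mrpl12, plus), chr3:94443216-94443335 (Mrpl9, plus) and chr17:46646109-46646228 (Mrpl2, plus).
Mrpl20: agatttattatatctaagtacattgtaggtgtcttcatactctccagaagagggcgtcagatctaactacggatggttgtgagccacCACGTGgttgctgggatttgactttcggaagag
Mrpl52: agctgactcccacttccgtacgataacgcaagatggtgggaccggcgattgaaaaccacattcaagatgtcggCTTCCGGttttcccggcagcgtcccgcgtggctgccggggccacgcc
Mrpl34: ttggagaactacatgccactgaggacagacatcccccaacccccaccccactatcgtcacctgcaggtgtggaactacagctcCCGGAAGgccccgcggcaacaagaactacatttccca
Mrpl12: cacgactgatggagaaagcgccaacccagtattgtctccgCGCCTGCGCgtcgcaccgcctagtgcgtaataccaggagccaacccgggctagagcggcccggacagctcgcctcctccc
Mrpl9: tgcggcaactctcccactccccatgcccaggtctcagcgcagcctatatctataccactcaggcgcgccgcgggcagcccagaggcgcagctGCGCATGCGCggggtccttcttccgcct
Mrpl2: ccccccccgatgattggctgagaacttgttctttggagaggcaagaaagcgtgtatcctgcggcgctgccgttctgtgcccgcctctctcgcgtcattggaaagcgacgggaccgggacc

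The motifs searched on both strands were GCGCANGCG for NRF1, CCGGAAG for ETS factors and GABP, AAGATGGC for YY1, CACGTG for MYC and USF, TGATGNAA for ATF4 with CHOP, and TGACGTCA for CREB and ATF. Promoters of 250 bases before to 50 bases after the start were found in RefSeq for 68 of the 77 members and for 9680 genes of the table. The NRF1 motif was in 16 member promoters (23.5%), against 14.3% of all promoters. The ETS and GABP motif was in 24 (35.3%), against 19.4%, and the YY1 motif in 11 (16.2%), against 4.95%. At least 1 of these 3 motifs was in 41 of the 68 member promoters (60.3%), against 33.7% of all promoters. The MYC and USF motif went the other way, with 4 member promoters (5.88%) against 10.2% of all. The ATF4 motif was in 0 member promoters and in 2.06% of all, and the CREB motif was in 2 (2.94%) against 3.36%. None of the 6 searched motifs was found in 24 member promoters (35.3%), against 56.8% of all. A match is a description of letters in this window and no evidence of binding.

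The response was also set beside motif content. Members with the NRF1 motif had a median log2 fold change of -0.047 and those without it -0.033, and the medians were -0.022 and -0.038 for ETS and GABP and -0.024 and -0.048 for YY1. The 4 members with the MYC and USF motif had a median of 0.029 and those without it -0.043, and the values for the 2 members with the CREB motif and the rest were -0.072 and -0.033. A list of factors known for the promoters of nuclear genes for mitochondrial proteins was looked at next, which is not the set of factors of the searched motifs. Of its 12 genes 11 were listed, with a median log2 fold change of 0.23, which stays above 0 after the shift of each scaling given below. Below 0 was 1 of them, against 39.1% of all genes, or 3 under each scaling, against 50% to 52%. Gabpb2, a subunit of GABP, had 6.33 RPKM with AS and 4.82 under vehicle, a log2 fold change of 0.39. Myc had 29.7 and 23.1 RPKM, a log2 fold change of 0.36. Nrf1 had 3.79 and 3.21 RPKM and Gabpa, the DNA-binding subunit of GABP, 27.6 and 23.3 RPKM, both named after their values were seen. Gabpb1 was the lowest of the list, with 2.42 RPKM with AS and 2.49 under vehicle.

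The members were transcripts of moderate abundance with a wide spread of levels. Their median RPKM was 10.1 with AS and 10.7 under vehicle, against 5.10 and 4.79 over all genes. The quartiles were 5.30 and 20.6 RPKM for the mean of both libraries, and the highest member stood 39.1-fold above the lowest. The order of the members hardly differed between the libraries, with a Pearson r of 0.991 and a Spearman rho of 0.991 over the 77 genes on the log2 RPKM scale, given as a description of genes that share the same pair of libraries. Together the members took 130558 reads with AS, 0.291% of the library (0.289 to 0.292), and 153685 reads under vehicle, 0.302% (0.301 to 0.304).

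The most abundant member was Mrpl2, whose protein lies close to the catalytic centre of the large subunit, with 84.5 RPKM with AS and 79.8 under vehicle. Mrpl18 followed, then Mrpl12 with 56.1 and 59.8 RPKM and Mrpl24 with 49.1 and 48.1 RPKM. Mrpl12 encodes the protein of the stalk that receives translation factors. All of these belong to the large subunit, and the highest small-subunit gene reached 31.1 RPKM in the mean of both libraries. At the lower end were Mrps16 with 2.16 RPKM with AS and 2.05 under vehicle, Mrpl4 with 2.14 and 2.15, Mrps17 with 2.95 and 2.67, and Mrps30 with 2.81 and 3.02. None of these low genes rested on fewer than 251 reads in a library. The lowest count of any member was that of Mrps36, with 180 reads with AS and 213 under vehicle.

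RPKM divides by the summed exons of a gene, which were 607 to 8631 bases long for the members, and long or rarely used exons lower the level it gives. Against the annotated principal transcript, known for 70 members, the summed exons were 1.34 times as long in the median and 15.3 times for Mrpl33. With the length of that transcript, a choice made after seeing the data, Mrpl33 was the most abundant of these 70 at 116 on the same scale as RPKM, ahead of Mrps9 at 112 and Mrpl13 at 97.5. This level divides the reads of all summed exons by that transcript alone, so reads from other exons raise it. The summed exons of Mrps9 were 4.06 times and those of Mrpl13 6.49 times as long as that transcript, so these high places may be overstated. Mrpl2, the highest by RPKM, is among the 7 members without such a transcript and has no place in this order. The 2 orders had a Spearman rho of 0.865 over these 70 genes, which share the same reads. On that scale the medians were 16.5 for the 44 Mrpl genes and 16.3 for the 26 Mrps genes. By RPKM the same genes had medians of 10.3 and 9.91, and all 48 and 29 had 10.7 and 8.50.

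**Figure D1:**
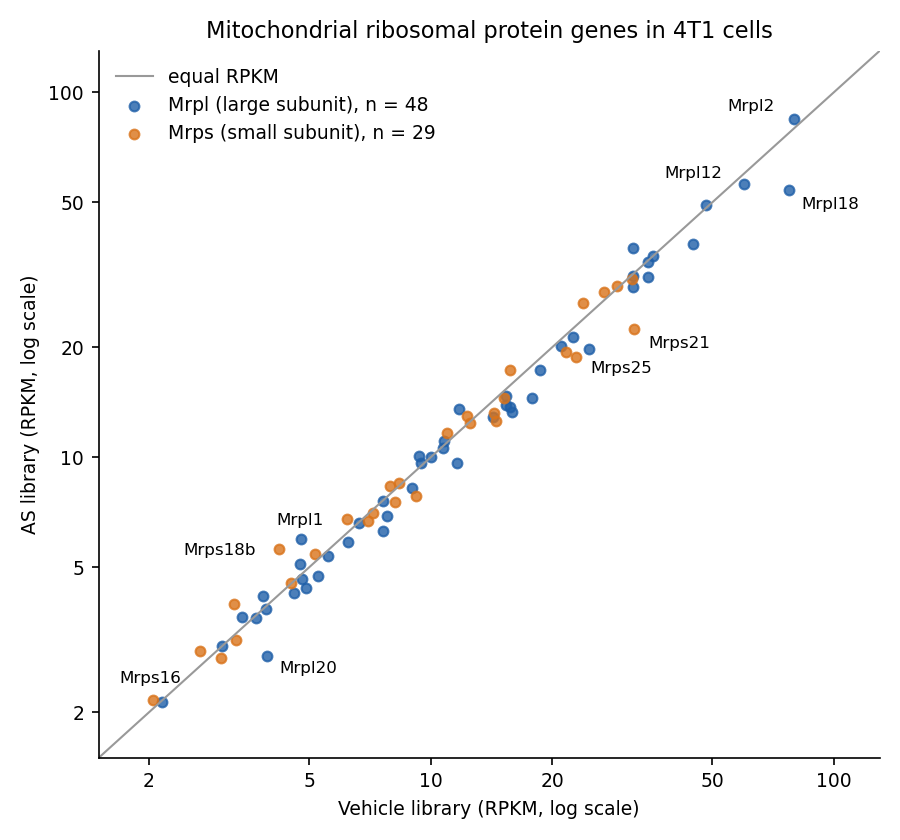
RPKM of the 77 mitochondrial ribosomal protein genes in the vehicle library (horizontal, log scale) and the AS library (vertical, log scale), 1 point per gene, with Mrpl genes in blue and Mrps genes in orange. The points lie close to the grey line of equal RPKM (r = 0.991), with Mrpl18, Mrps21 and Mrpl20 below it and Mrps18b and Mrpl1 above it.

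Change between the libraries was expressed as log2 of AS over vehicle with 0.1 RPKM put on top of each value, so that the difference of weakly expressed genes is understated. No member lay beyond 1 on this log2 scale, upward or downward. Over all genes 0.662% were above 1 and 0.31% below -1. The study's lower threshold, a 1.5-fold difference, was also passed by 0 of the 77 members without scaling, against 3.56% of all genes upward and 2.01% downward. With a scaling between the libraries, a few members lay past it on the lower side. Mrpl18 did so with TMM and with median of ratios (2.77% of all genes in each), and Mrpl18 and Mrps21 with the upper quartile (2.94%). The members kept within narrow bounds, from -0.52 to 0.40, and 61 of them (79.2%) lay within 0.2 of 0, against 56.1% of all genes.

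Within these bounds the members were slightly lower with AS. Their median log2 fold change was -0.029, with quartiles of -0.14 and 0.073, while the median of all genes was 0.066 with quartiles of -0.098 and 0.23. Below 0 were 50 of the 77 members (64.9%), against 39.1% of all genes, and 57 members (74.0%) lay below the median of all genes. The counting interval was wholly below 0 for 23 members and wholly above 0 for 14, where over all genes it was below 0 for 19.8% and above 0 for 37.6%. These counts depend on the scaling between the libraries. With TMM or median of ratios 57 members were below 0 (50% of all genes), 35 had an interval wholly below 0 (28.2%) and 5 one wholly above 0 (27.3%). With the upper quartile the numbers were 61 (52%), 37 (29.5%) and 5 (25.9%). Summed over the members the RPKM was 1170 with AS and 1234 under vehicle, a log2 ratio of -0.077. The log2 ratio of their summed reads, scaled to the library totals, was -0.057 (counting interval -0.068 to -0.046).

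Scaling by TMM, median of ratios or upper quartile lowered the AS values by 0.068, 0.069 and 0.080 on the log2 scale, a little less for weakly expressed genes because of the added 0.1 RPKM, and left the members' place among all genes as it was. After removal of the trends of the fold change with exon length, expression and GC content, the members' median was -0.0005. That of all genes was 0.067, and 39 of the 77 members (50.6%) were below 0, against 37.2% of all genes. Short and abundant genes were slightly lower with AS in the whole table. The correlation of the log2 fold change with exon length was 0.17 over all genes and 0.23 over the members, and with mean RPKM it was -0.14 and -0.23 (Pearson r, across genes of 1 pair of libraries, n = 14197 and 77).

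Between the subunits the difference was small, with the large subunit the lower group in every scaling tried. Mrpl genes had a median log2 fold change of -0.058 (quartiles -0.15 and 0.00033), and Mrps genes one of 0.0035 (quartiles -0.099 and 0.080), which turned to -0.063 with TMM scaling, to -0.064 with median of ratios and to -0.075 with the upper quartile, and was 0.041 with trends removed. The difference of the medians was -0.061, and the range of each group covered most of the other. Below 0 were 36 of 48 Mrpl genes (75%) and 14 of 29 Mrps genes (48.3%), against 39.1% of all genes. With trends removed the counts were 29 and 10, against 37.2% of all genes, and the Mrps count is near that share. The counting interval was wholly below 0 for 17 Mrpl and 6 Mrps genes and wholly above 0 for 5 Mrpl and 9 Mrps genes, beside 19.8% and 37.6% of all genes, and the Mrps counts are near those shares. With any of the 3 scalings 3 Mrpl and 2 Mrps genes remained wholly above 0, against 25.9% to 27.3% of all genes. The larger number of Mrps genes there thus held only without scaling. With TMM 24 Mrpl and 11 Mrps genes were wholly below 0, against 28.2% of all genes. Below 0 with TMM were 40 and 17, against 50% of all genes, or 40 and 21 with the upper quartile, against 52%. The summed RPKM was 816 with AS and 868 under vehicle for Mrpl genes, a log2 ratio of -0.089, and 354 and 366 for Mrps genes, a log2 ratio of -0.049. Genes of 1 pair of libraries are not replicates, so no error between dishes can be set beside this difference.

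Names and positions in the ribosome differ for a few members. Mrps30 and Mrps18a encode proteins of the large subunit, and Mrps36 encodes a subunit of the 2-oxoglutarate dehydrogenase complex. Grouped by place, the 50 large-subunit genes had a median of -0.058 and the 26 small-subunit genes 0.012. Mrps30 had 2.81 RPKM with AS and 3.02 under vehicle, a log2 fold change of -0.099, and Mrps18a had 6.76 and 6.21 RPKM, a log2 fold change of 0.12. Mrps36 had 3.15 and 3.29 RPKM, and its counting interval spanned 0 (-0.36 to 0.23). By descent, the 45 members with a bacterial homologue had a median log2 fold change of -0.029 and the 31 proteins particular to mitochondria -0.024. The lowest median of the 4 combinations was that of the 21 mitochondrial proteins of the large subunit (-0.090) and the highest that of the 10 mitochondrial proteins of the small subunit (0.049). The order was another by summed reads, where the log2 ratio was lowest for the large-subunit genes with a bacterial homologue (-0.077) and highest for the small-subunit genes with one (-0.0091), with -0.066 and -0.061 for the mitochondrial proteins of the large and small subunit.

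**Figure D2:**
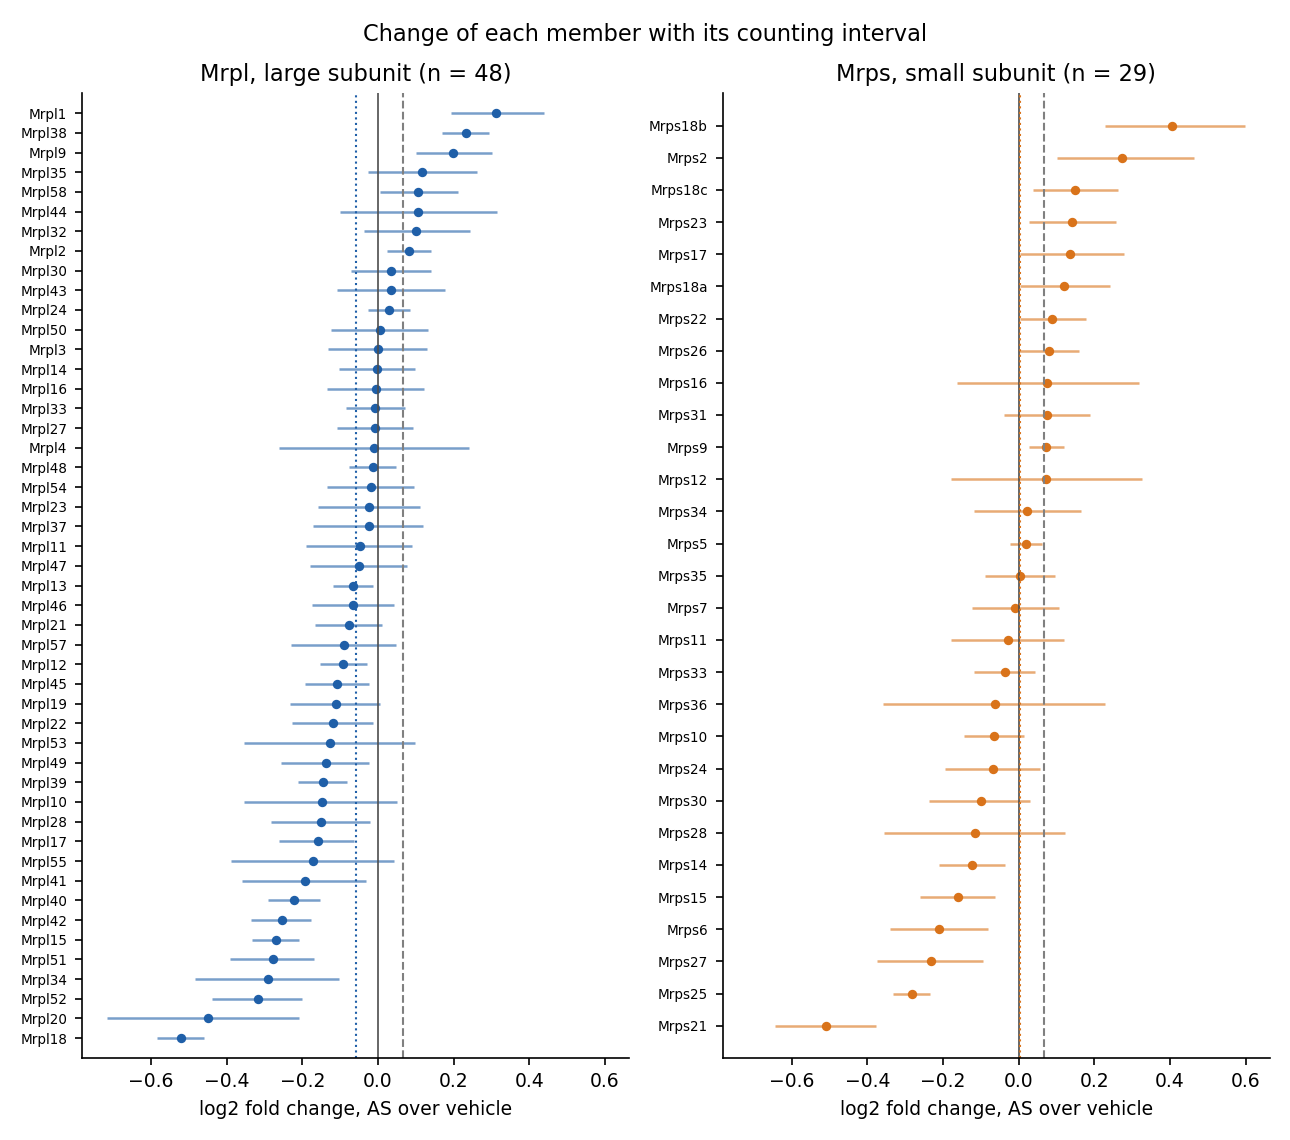
Log2 fold change (AS over vehicle, horizontal) of each Mrpl gene (left, n = 48) and each Mrps gene (right, n = 29), with bars for the 95% counting interval of its reads. The solid line is 0, the dashed line the median of all genes (0.066) and the dotted line the median of the group (-0.058 and 0.0035). Most Mrpl genes lie left of the dashed line, and the ends of each panel are formed by few genes.

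The lower end was formed by Mrpl18, Mrps21 and Mrpl20. Mrpl18 encodes the homologue of a bacterial protein of the central protuberance, the part of the large subunit that in bacteria holds the 5S rRNA, and lies at chr17:12911349-12916345 on the minus strand (GRCm38). Its RPKM was 53.9 with AS and 77.4 under vehicle (3387 and 5501 reads). On the log2 scale it differed by -0.52 (counting interval -0.58 to -0.46), number 398 from the lowest among all 14197 genes. It was the second most abundant member by RPKM and gave the largest single share of the lower sum of the large subunit. Part of its exons overlap those of Tcp1 on the opposite strand, and the strand setting of the counting is not given in the sources used here, so reads of the pair cannot be told apart with certainty.

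Mrps21 encodes a homologue of bacterial S21 in the small subunit and lies at chr3:95862634-95871519 on the minus strand. Its RPKM was 22.4 with AS and 32.0 under vehicle, from 744 and 1200 reads, and its log2 fold change was -0.51 (-0.65 to -0.38). The next lowest value of its subunit was that of Mrps25, from which it stood apart except with trends removed, where the log2 fold changes were -0.32 and -0.28. Mrps25, a small-subunit protein particular to mitochondria, had 18.9 RPKM with AS and 22.9 under vehicle, from 5568 and 7668 reads, and a log2 fold change of -0.28 (-0.33 to -0.23).

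Mrpl20 encodes a homologue of a bacterial protein that binds the large rRNA early in assembly. It had 2.85 RPKM with AS and 3.93 under vehicle, from only 213 and 332 reads, and its log2 fold change of -0.45 had a wide counting interval (-0.72 to -0.21). Mrpl52, a protein particular to mitochondria, had 19.8 and 24.7 RPKM, a log2 fold change of -0.32 (-0.44 to -0.20). Mrpl34 is a homologue of a short basic bacterial protein, and its 607 bases of exon were the shortest of all members. Its RPKM was 14.5 with AS and 17.8 under vehicle, a log2 fold change of -0.29 (-0.48 to -0.10). For all 6 of these low genes the AS value stayed the lower under every scaling, added amount, thinning and removal of trends tried. The size was less stable, since with trends removed Mrps21 was at -0.32, Mrpl52 at -0.16 and Mrpl34 at -0.15, the last within its counting error.

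At the upper end the values were closer to 0, except with trends removed, where the highest member was at 0.44 and the lowest, Mrpl20, at -0.44. Mrps18b, 1 of a family of 3 genes named after bacterial S18 and counted above among the proteins particular to mitochondria, lies at chr17:35910379-35916389 on the minus strand. It had 5.61 RPKM with AS and 4.21 under vehicle, from 526 and 447 reads, and its log2 fold change of 0.40 (0.23 to 0.60) was the highest of the members and number 1313 from the highest of all genes. Of the others in the family, Mrps18c had 26.5 and 23.9 RPKM, a log2 fold change of 0.15 (0.038 to 0.26), and Mrps18a is given above. All 3 were higher with AS, but under the scalings Mrps18c was at 0.070 to 0.082 and Mrps18a at 0.042 to 0.054, within the counting error of each. With trends removed they were at 0.28 and 0.12.

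Mrpl1, which forms the mobile stalk beside the exit site for tRNA, had 5.95 RPKM with AS and 4.78 under vehicle, a log2 fold change of 0.31 (0.19 to 0.44). Mrps2, a homologue of bacterial S2, had 3.95 and 3.25 RPKM, a log2 fold change of 0.27 (0.10 to 0.46). These rest on 1148 and 1043 reads for Mrpl1 and on 518 and 482 reads for Mrps2. Mrpl38, a mitochondrial protein of the central protuberance, had 37.3 and 31.8 RPKM with 4275 and 4117 reads behind them, a log2 fold change of 0.23 (0.17 to 0.29). Mrpl9, whose exons overlap those of Oaz3 on the other strand, had 13.5 and 11.8 RPKM, a log2 fold change of 0.20 (0.10 to 0.30).

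Mrpl12, whose protein has been described as a partner of the mitochondrial RNA polymerase, had a log2 fold change of -0.092 (-0.15 to -0.030), which turned positive (0.074) when trends were removed. Mrpl58, a peptidyl-tRNA hydrolase built into the large subunit that releases stalled chains, had 10.1 RPKM with AS and 9.33 under vehicle, a log2 fold change of 0.11 (0.005 to 0.21), or 0.028 to 0.039 under the scalings. Among the most and least abundant members, Mrpl2 had a log2 fold change of 0.082, which was 0.0024 to 0.014 under the scalings and 0.29 with trends removed. Mrps17 had one of 0.14, which was 0.060 to 0.071 under the scalings and 0.066 with trends removed, within its counting error. Mrpl4 had one of -0.0095, which was -0.075 to -0.086 under the scalings, also within its counting error. That of Mrpl24 (0.030) turned negative under every scaling, to as low as -0.049, and was 0.14 with trends removed. That of Mrps16 (0.075) turned negative only with the upper quartile (-0.0013). It stayed positive with TMM (0.0095) and with median of ratios (0.0094).

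Many members begin beside another gene. A protein-coding gene on the opposite strand started within 1000 bases of the annotated start of 32 of the 77 members (41.6%), against 17.5% of the 11263 protein-coding genes of the table that could be placed. Mrpl46 and Mrps11 form such a pair of members on chromosome 7, and had 20.1 and 7.03 RPKM with AS and 21.1 and 7.18 RPKM under vehicle. The neighbour was listed for 31 members. Their log2 fold changes ran from -0.29 to 0.40, with a median of -0.0054. Without scaling, member and neighbour were both below 0 in 12 pairs, both above 0 in 8 and of opposite sign in 11. Of all genes 39.1% were below 0. These counts depend on the scaling, whose shift of 0.068 to 0.080 is larger than values such as those of Mrps5 (0.020) and its neighbour Zfp661 (0.017). The correlation was weak (Pearson r 0.20 and Spearman rho 0.22 over 31 pairs of 1 pair of libraries, with Mrpl46 and Mrps11 counted from both sides).

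Tcp1, a subunit of the cytosolic chaperonin that starts beside Mrpl18, had 169 RPKM with AS and 185 under vehicle, a log2 fold change of -0.13 against -0.52 for Mrpl18. Ncapd2, a condensin subunit beside Mrpl51, had 19.9 and 23.1 RPKM, a log2 fold change of -0.21, and Mrpl51 had 6.28 and 7.63 RPKM, a log2 fold change of -0.28. Twnk, the helicase of the mitochondrial genome, starts beside Mrpl43 and had 36.6 and 27.8 RPKM, a log2 fold change of 0.40, whereas Mrpl43 was near equal at 11.1 and 10.8 RPKM. Ppp1r10 beside Mrps18b had 8.68 and 8.67 RPKM, so the highest member had a neighbour with almost no difference. Mrpl46, Mrps11, Mrpl51, Mrpl43 and these neighbours were chosen after their values were seen. Exons of 27 members overlapped a gene on the opposite strand and those of 8 a gene on the same strand, and for these the split of reads is uncertain.

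**Figure D3:**
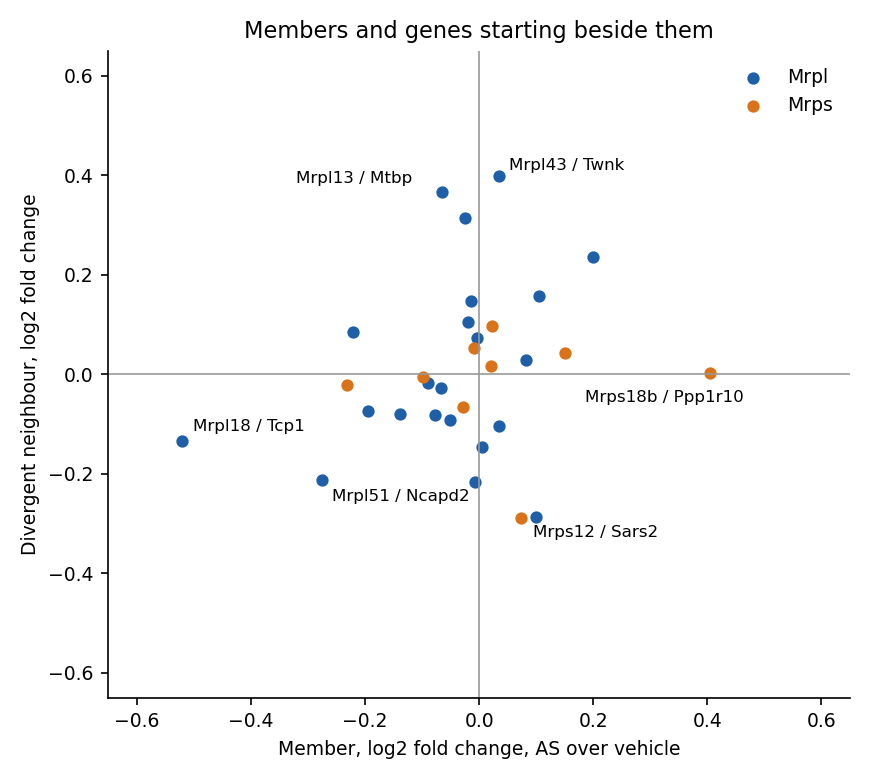
Log2 fold change (AS over vehicle) of 31 members (horizontal) and of the protein-coding gene that starts within 1000 bases on the opposite strand (vertical), 1 point per member, with Mrpl genes in blue and Mrps genes in orange. The points scatter around the origin (r = 0.20), with 20 pairs of the same sign and 11 of opposite sign without scaling.

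The other proteins and RNAs of the mitochondrial ribosome were set beside the members. Of the 5 ribosomal proteins with other names 4 were below 0, and their median log2 fold change was -0.13, or -0.033 with 3 below 0 when trends were removed. Under each scaling all 5, Dap3 included, were below 0, with medians of -0.20 to -0.21. Chchd1 had 45.2 RPKM with AS and 50.5 under vehicle (-0.16), Gadd45gip1 20.3 and 22.4 (-0.14), Aurkaip1 22.7 and 24.9 (-0.13), Ptcd3 9.55 and 9.71 (-0.025) and Dap3 9.73 and 9.34 (0.058). The rRNA of the small subunit, mt-Rnr1, had 48.7 RPKM with AS and 72.9 under vehicle, a log2 fold change of -0.58, and that of the large subunit, mt-Rnr2, 49.3 and 59.9 RPKM, a log2 fold change of -0.28. The second of them was named after its values were seen. These levels come from an mRNA preparation and need not reflect the rRNA of the cells. Some RNAs without a poly(A) tail were also lower in the AS library. The cytosolic 18S rRNA entry Rn18s-rs5 had 1015 RPKM with AS and 3005 under vehicle (-1.57), Rn7s1, a 7S RNA, 0.742 and 24.7 RPKM (-4.88), and Rpph1, the RNA of nuclear RNase P, 0.140 and 9.50 RPKM (-5.32). The 36 listed snoRNAs were mixed, with a median of -0.15 and 22 below 0. Gm22392, the 1 listed snRNA, was higher with AS, with 17.5 and 12.3 RPKM (0.50). These RNAs were chosen after their values were seen, and their part in the mt-Rnr1 and mt-Rnr2 values was not tested.

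Genes that build the ribosome form a list of their own, and counts past a 1.5-fold difference in this and the following lists are without scaling unless stated. Of all genes 39.1% were below 0 without scaling, to be set beside the counts below 0 in every list. With a scaling this share was 50% to 52%, and with trends removed 37.2%. The 30 genes of mitoribosome assembly and rRNA maturation had a median log2 fold change of 0.15, beside -0.029 for the members. Under the scalings the median of these 30 stayed above 0, at 0.069 to 0.080. Of these genes 5 were below 0, or 9 to 10 under the scalings, and 0 past a 1.5-fold difference. Mettl17, an assembly factor of the small subunit, had 2.19 RPKM with AS and 1.56 under vehicle (0.47), and Mettl15, which methylates the small-subunit rRNA, 1.51 and 1.07 (0.46). The rRNA methyltransferase gene Nsun4 was the lowest, with 0.736 and 0.854 RPKM (-0.19), followed by Mpv17l2 with 2.66 and 2.86 RPKM (-0.099). These are low transcripts, and the counting interval of Nsun4 reached from -0.49 to 0.058.

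The factors that work with the ribosome were mixed. The 18 translation and mRNA stability factors had a median of 0.085, with 4 below 0 and 0 past a 1.5-fold difference. Under the scalings this median was 0.0075 to 0.018 and 7 to 9 of the 18 were below 0. Mtif2, the initiation factor, had 20.3 RPKM with AS and 17.2 under vehicle, and Taco1, an activator of cytochrome oxidase translation, 7.73 and 6.53, each with a log2 fold change of 0.24. The elongation factor Tufm stood out at the lower end with 33.5 and 40.7 RPKM (-0.28), and its exchange factor Tsfm had 7.99 and 8.75 RPKM (-0.13). Transcription and maintenance of the mitochondrial genome (12 genes) had a median of 0.14, with 2 below 0. Under the scalings this median was 0.061 to 0.072 and 4 of the 12 were below 0. In that list Tfb2m, the transcription initiation factor, had 6.70 and 4.95 RPKM (0.43), Twnk is given above, and Mgme1 was the lowest with 10.6 and 11.2 RPKM (-0.068).

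Genes that charge mitochondrial tRNAs spread wider than the members. This list held 20 genes, the aminoacyl-tRNA synthetases and, with Qrsl1, Gatb and Gatc, the 3 subunits of the amidotransferase that completes glutaminyl-tRNA. Its median was 0.090, or 0.011 to 0.023 under the scalings, and its mean was -0.00079. By at least 1.5-fold 1 gene was higher and 2 were lower, against 3.56% and 2.01% of all genes. The higher one was not past this difference with any scaling or with trends removed. Mars2 had 0.414 RPKM with AS and 0.235 under vehicle (0.62, from 210 and 135 reads) and Ears2 1.22 and 0.863 (0.46). Lars2 had 3.22 and 6.08 RPKM, with 1605 and 3425 reads behind them, a log2 fold change of -0.89 (-1.0 to -0.83), and Yars2 had 1.67 and 2.61 RPKM (-0.61). The 28 genes of protein import had a median of 0.034 and the 16 chaperones and proteases 0.017, and both medians fall below 0 with the shift of any of the 3 scalings. With trends removed the chaperone list was at 0.050, with 5 of 16 below 0 in place of 8. Timm10 had 4.04 and 2.70 RPKM (0.56) and Tomm6 10.6 and 14.2 (-0.42). Tomm22 was also lower, with 7.74 and 10.2 RPKM (-0.40).

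The import and chaperone lists shared Hspa9, the chaperone of the import motor, which had 477 RPKM with AS and 341 under vehicle, a log2 fold change of 0.48. Atf5, a transcription factor of the mitochondrial stress response kept in the chaperone list, had 25.7 and 12.3 RPKM, a log2 fold change of 1.05 and the highest of all these lists. The prohibitin genes were the lowest of that list, Phb with 24.3 and 30.4 RPKM (-0.32) and Phb2 with 18.2 and 21.5 RPKM (-0.24). None of these genes is a member, and the lists were written with earlier results in view.

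The next lists were the genes of the mitochondrial genome, with the rRNAs, and the nuclear subunits of the respiratory chain, with complex II, which has no subunit from that genome. Of 15 mitochondrial genes written down 11 were listed, with a median of -0.13 and 10 below 0. Among them mt-Nd3 had 78.8 RPKM with AS and 113 under vehicle (-0.52), and mt-Co1 alone was above 0, with 1996 and 1926 RPKM (0.051), but fell below it with each scaling (-0.017 to -0.029). With trends removed the median of the 11 was 0.048 and 5 were below 0. The 80 nuclear subunits of the respiratory chain had a median of -0.18, with 72 below 0. With trends removed it was -0.081, with 49 of 76 below 0. Without scaling 1 was lower by more than 1.5-fold, against 2.01% of all genes, which was Atp5k with 42.3 and 65.8 RPKM (-0.64). Under each scaling 3 of these 80 were lower by as much, against 2.77% to 2.94% of all genes. So were 2 of the 11 genes of the mitochondrial genome, where it was 0 without scaling. Ndufb3 had 19.5 and 29.0 RPKM (-0.57), and Ndufa6 was the highest with 20.0 and 17.8 RPKM (0.17). The 76 cytosolic ribosomal protein genes had a median of -0.077, with 72 below 0, which turned to 0.052 and 20 with trends removed. The lowest were Rpl38, with 232 and 318 RPKM (-0.45), and Rpl35a, with 15.8 and 19.3 RPKM (-0.29), and the highest was Rps14, with 49.2 and 43.8 RPKM (0.17).

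**Figure D4:**
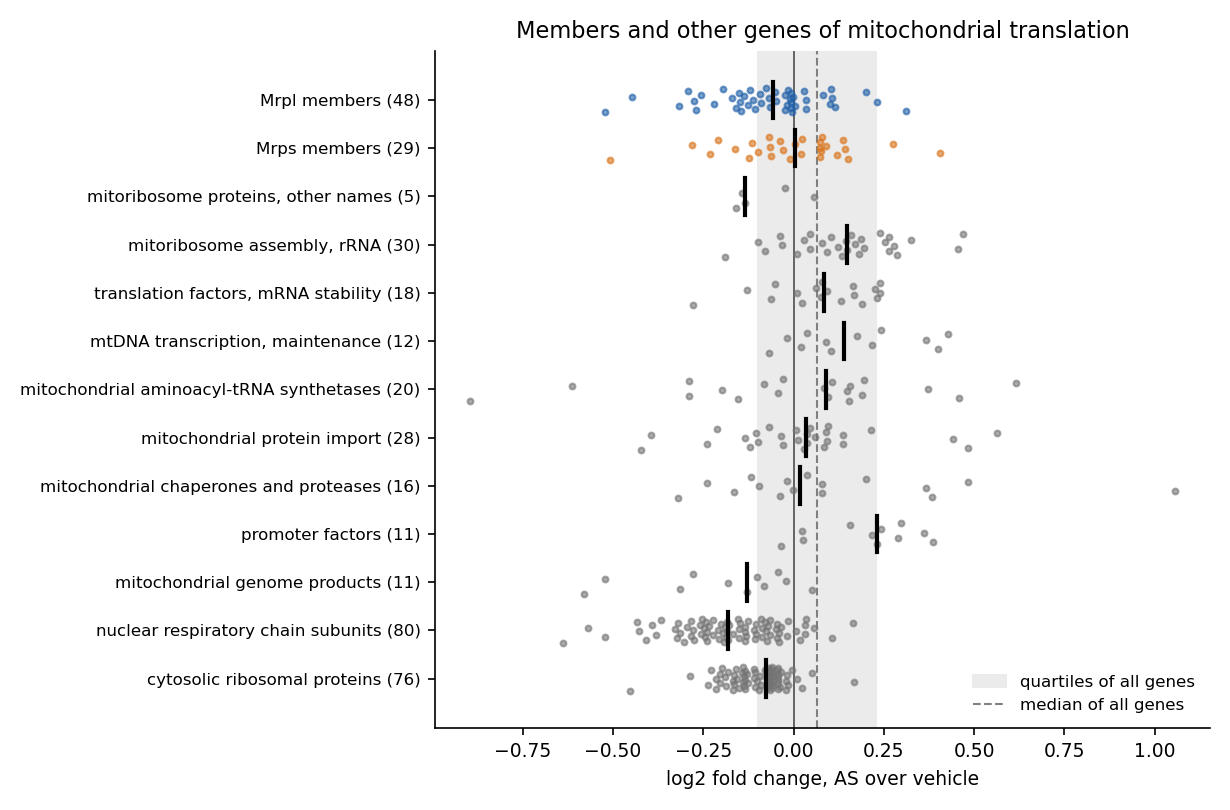
Log2 fold change (AS over vehicle, horizontal) of the Mrpl members, the Mrps members and 11 other gene lists, 1 point per gene with the number of genes in brackets, and a black bar for the median of each list. The grey band spans the quartiles of all genes (-0.098 to 0.23) and the dashed line their median (0.066). The medians run from -0.18 for the respiratory chain to 0.23 for the promoter factors, with the members at -0.058 and 0.0035. The synthetase list includes 3 amidotransferase subunits.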

How the data were processed

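The deposited table, made by the authors, gives RPKM for each of the 2 libraries and the log2 of the mean CPM over both (the authors' mean); their log2 fold change, p-value and FDR columns were not used. The submitters' processing notes name fastp 0.23.4, STAR 2.5.3a, featureCounts and GRCh38, a human build, although symbols and exon lengths are those of the mouse. The summed exon length implied by the values equalled that of GENCODE M21 (GRCm38) for 94.2% of 13502 genes with a single entry and for all 77 members, so coordinates are from there. The counting strand setting is not given in the sources used here. Whole reads were recovered to within 0.0001 of a whole read for every gene from RPKM and the log2 CPM. No molecular identifiers are named.

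The members and lists were chosen with earlier results of these data known. Named members were the 6 highest and 6 lowest by log2 fold change with a mean of at least 100 reads, the 4 highest and 4 lowest by mean RPKM, and Mrps18a, Mrps18b, Mrps18c, Mrps30, Mrps36, Mrpl12 and Mrpl58. Of the lists, all 5 ribosomal proteins with other names and up to 2 of the highest and 2 of the lowest genes of each other list were named. Genes named beyond this were chosen after their values were seen. Alternatives were scaling by upper quartile, TMM or median of ratios, 0 or 1 RPKM added, a minimum of 100 reads, thinning of the deeper library, removal of trends (medians in 20 bins, 3 rounds), other memberships and the mean. Scripts were tested on simulated data and ran in Python 3.11 with numpy 2.4.6, scipy 1.17.1 and pandas 2.3.3. The planned comparison of protein sequences was not made.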

Additional observations from a re-analysis of the deposited data

How the results depend on the processing

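With 1 library per condition no replicate could be left out, and only counting error can be given. No paired analysis was possible because each group has 1 library. The median log2 fold change of the members (-0.029) was -0.096 with TMM, -0.0962 with median of ratios, -0.107 with the upper quartile, -0.0005 with trends removed and -0.048 as a mean. Their summed RPKM ratio (-0.077) was -0.1454, -0.1455 and -0.157 under the 3 scalings. The difference between the subunits (-0.061) was -0.0896 with trends removed. The spread of levels (39.1-fold over all 77 members) was 49.5-fold with principal transcripts. That value covers only the 70 members that have one, without Mrpl2, so the 2 spreads are of different sets. The shift of the scalings is shared by all genes. The cause of the other shifts was not tested. Of the 22 named members, 6 moved beyond their counting error under each scaling and 8 with trends removed. Under the 3 scalings 1, 1 and 2 members passed a 1.5-fold difference, a count added after seeing the data, and 0 did under the other settings or without any. Under them 5, 5 and 5 members (14 without) had a counting interval above 0 and 35, 35 and 37 (23 without) one below, also added. The other alternatives run on the members' median, summed RPKM ratio, subunit difference and named members moved these by less than the counting error. No counting error of a median was computed. Half-widths from summed reads stood in for it, 0.0107 for the members and 0.0219 for the subunit difference. No other alternative was run on the counting-interval counts or the spread of levels. Under any alternative run for it, 0 members passed a log2 fold change of 1. The planned removal of trends was not run on the summed RPKM. Depth limits Mrps36, Mrpl20 and Mrps12 most.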
